A study of Mus musculus with 4 samples.

Results

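Genes of innate microbial sensing were examined in polyadenylated RNA of mouse endometrium, the inner lining of the uterus: the Toll-like receptor genes Tlr2, Tlr3, Tlr4, Tlr7 and Tlr9, the adaptor Myd88, the cytosolic sensors Nod2 and Nlrp3, and the inflammatory caspases Casp1 and Casp4. They were found by symbol, and all 10 were among the 28545 genes of the deposited tables. Of 4 libraries, 2 were titled SMAD7fl/fl with treatment blank (called floxed here) and 2 SMAD7 Cre+/- with treatment CKO (called Cre). The design text gives proestrus for all the mice and calls the tissue uterine and the controls WT. By the labels' protocol, loxP sites were brought into Smad7 by injecting fertilized eggs with a guide RNA, a donor vector and Cas9 mRNA; the sources used here do not give the promoter driving Cre, the strain or the ages. Nothing in the labels says that replicates are separate animals, so the spread between libraries may be technical. Smad7, an inhibitor of TGF-beta signalling and the gene named for deletion, was higher in the libraries labelled Cre. Its CPM (counts scaled to the size of the library) were 34.3 and 36.8 in the floxed and 227.6 and 154.0 in the Cre libraries. Counts were given per gene, so loss of a part of Smad7 was not tested. Each contrast below therefore sets the libraries labelled Cre against those labelled floxed; exchanged labels would turn every direction given, and whether they were exchanged was not tested. All 8 epithelial and all 8 stromal markers of endometrium had reads in every library, as did all 6 smooth muscle markers, genes of the outer muscle layer and of vessels.

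Toll-like receptors are membrane proteins that bind microbial molecules. TLR2 and TLR4 act at the cell surface on bacterial lipoproteins and lipopolysaccharide, and TLR3, TLR7 and TLR9 act in endosomes on double-stranded RNA, single-stranded RNA and unmethylated DNA. MYD88 carries the signal of all of these except TLR3 to NF-kappa-B, a transcription factor that induces cytokines. NOD2 senses fragments of bacterial cell wall in the cytosol. NLRP3 assembles an inflammasome, a complex that activates the protease caspase-1, and the product of mouse Casp4 binds lipopolysaccharide in the cytosol directly. In the endometrium such sensors are found in epithelium and stroma as well as in resident leukocytes.

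Casp1 and Casp4 are neighbours on chromosome 9 of GRCm38 (GENCODE M21), both on the plus strand, from 5298517 to 5307265 and from 5308828 to 5336783, with 1562 bases between them. The stretches just upstream of the first annotated exon are shown for this pair, since Casp4 had the lowest p of the 10 genes, and for Tlr2 and Tlr9, a surface and an endosomal receptor whose highest values came from different floxed libraries. They are RefSeq sequence of GRCm38.p6, and capitals mark matches on either strand to a kappa-B pattern, GGG, any 5 bases, then CC. The Casp4 stretch is chr9:5308599-5308827, plus strand, and lies between the 2 genes.
Casp4: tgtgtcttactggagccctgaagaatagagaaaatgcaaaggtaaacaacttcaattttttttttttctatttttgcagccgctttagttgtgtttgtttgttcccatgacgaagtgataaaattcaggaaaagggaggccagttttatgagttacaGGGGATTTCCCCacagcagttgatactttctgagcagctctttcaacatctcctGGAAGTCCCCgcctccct
The Casp1 stretch is chr9:5298267-5298516, plus strand.
Casp1: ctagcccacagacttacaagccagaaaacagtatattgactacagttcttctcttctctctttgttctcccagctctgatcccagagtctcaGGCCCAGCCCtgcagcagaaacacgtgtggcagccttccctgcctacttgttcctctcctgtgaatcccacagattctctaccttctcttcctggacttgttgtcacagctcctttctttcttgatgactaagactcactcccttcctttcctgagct
The Tlr2 stretch is chr3:83841768-83841858, minus strand.
Tlr2: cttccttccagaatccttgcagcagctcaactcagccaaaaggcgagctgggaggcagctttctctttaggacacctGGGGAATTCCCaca
The Tlr9 stretch is chr9:106222348-106222597, plus strand.
Tlr9: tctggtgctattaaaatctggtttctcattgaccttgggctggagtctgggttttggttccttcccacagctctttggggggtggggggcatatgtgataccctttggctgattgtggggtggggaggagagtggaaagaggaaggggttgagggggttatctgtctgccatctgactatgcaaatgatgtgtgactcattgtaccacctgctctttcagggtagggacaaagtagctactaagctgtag
Casp4 had 3 overlapping matches in its first run of capitals, 91 to 93 bases before the RefSeq start, and another 39 bases before it; a match 14 bases before the start lies past the stretch shown. Tlr2 had 2 overlapping matches in its single run, Casp1 had 1 and Tlr9 had 0. Among the 8 of the 10 genes with a RefSeq promoter window (not Tlr4 or Tlr7), 6 held the pattern in the 250 bases before the start, where 45.8% of 32851 windows of that length did. The interferon-stimulated response element, GAAA, 2 bases of any kind, then GAAA, was in the Myd88 window alone, against 2.98% of all windows. The PU.1 pattern GAGGAAGT was in 0 of the 8, against 2.44%. These are matches of letters and not shown binding sites.

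Fitted values of all 10 genes were lower for Cre than for floxed libraries, and for 9 of them, all but Tlr4, the CPM of the groups did not overlap. None of the 10 passed the test. edgeR's quasi-likelihood test called 0 of 13513 genes lower at an adjusted p under 0.05 (0%), and the lowest adjusted p of any gene was 0.0838. At an unadjusted p under 0.05, 2 of the 10 genes were lower, Casp4 and Myd88, beside 6.58% of the genes tested. Lower values without overlap were found in 23.6% of the genes tested, and in 8 of the 9 of these genes that entered the test. DESeq2 called Casp4 alone of the 10 (adjusted p 0.00148), where it called 3.0% of the genes lower. The median log2 fold change of the 9 tested genes was -0.76, and that of all tested genes -0.033; without floxed replicate 1 the former was -0.50. In bulk tissue, fewer cells of a type and less RNA per cell cannot be told apart. Marker genes of immune cells were also lower in the libraries labelled Cre, with summed leukocyte marker FPKM of 233 and 177 in the floxed and 103 and 99.4 in the Cre libraries; their part in the values of the 10 genes was not tested.

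**Figure D1:**
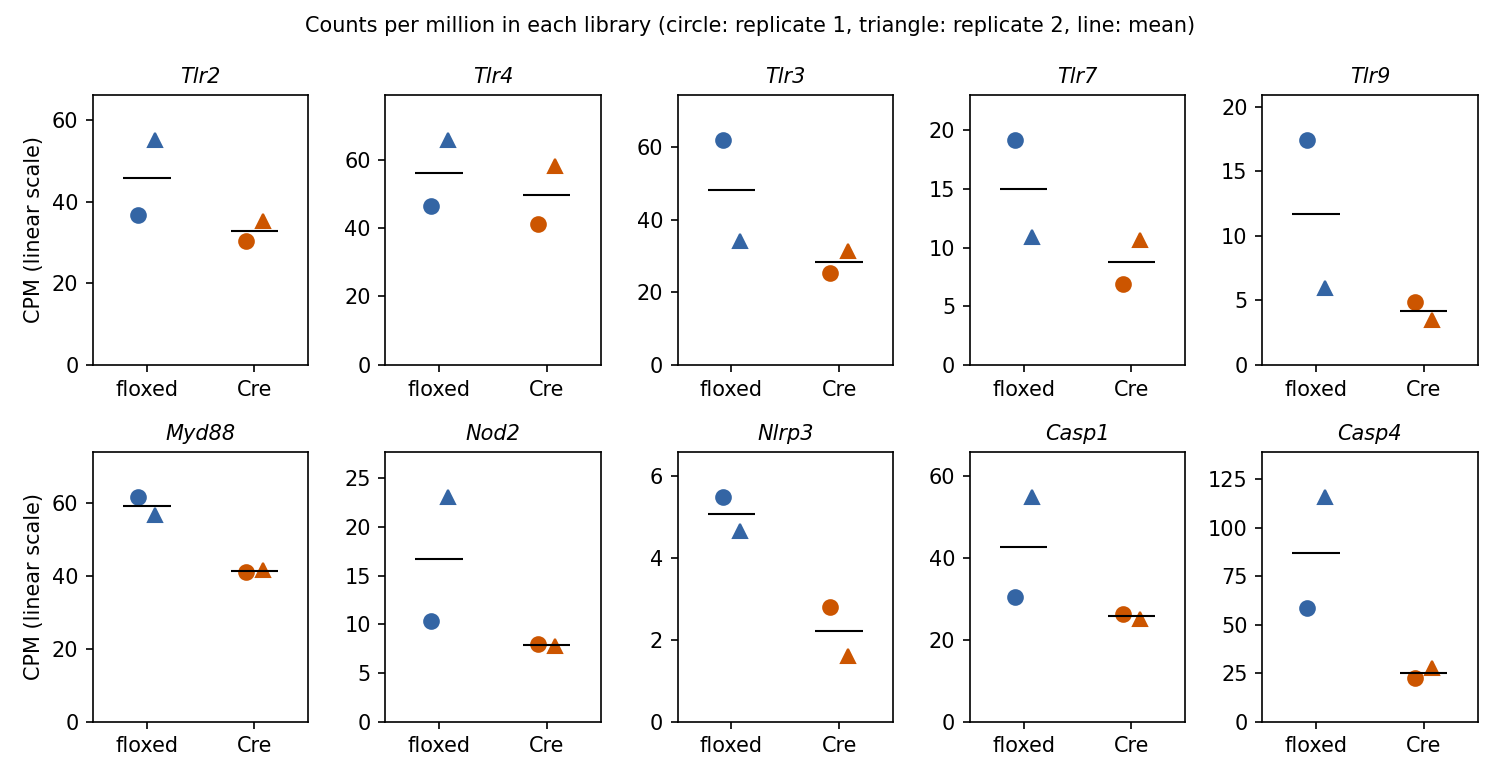
CPM of each of the 10 genes in each of the 4 libraries (circles replicate 1, triangles replicate 2, floxed blue and Cre orange, lines at the group means, 1 linear axis per gene). The highest value of every gene is a floxed one, from floxed replicate 1 for 5 genes and from floxed replicate 2 for the other 5.

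Of the surface receptors, Tlr2 (chromosome 3, 83836272 to 83841767, minus strand) stood at 36.7 and 55.1 CPM in the floxed libraries and at 30.3 and 35.2 in the Cre libraries. The floxed values were both above the Cre values, though the nearest pair differed by 1.04 times. The log2 fold change was -0.49 ± 0.27 (SE; edgeR adjusted p 0.485), within the spread between libraries, and -0.17 without floxed replicate 2. Tlr4 (chromosome 4, 66827584 to 66930284, plus strand), the lipopolysaccharide receptor, stood at 46.4 and 65.7 CPM against 41.2 and 58.2. Its groups overlapped, with the second Cre library above the first floxed one. Its log2 fold change was -0.17 ± 0.29 (adjusted p 0.803), and it was above 0 without floxed replicate 2 (0.092) and without Cre replicate 1 (0.049), so no direction can be given for Tlr4.

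The endosomal receptors were highest in floxed replicate 1. Tlr3 (chromosome 8, 45395665 to 45411080, minus strand) stood at 62.0 and 34.2 CPM in the floxed and 25.4 and 31.5 in the Cre libraries, with floxed replicate 2 close to the Cre pair. Its log2 fold change was -0.76 ± 0.34 (adjusted p 0.405), and -0.27 without floxed replicate 1. Gm45542 on the other strand covers 7.32% of its exon sequence; whether counting used strand is not stated. Tlr7 (chromosome X, 167304929 to 167330558, minus strand) stood at 19.2 and 10.9 against 6.87 and 10.7 CPM. The second floxed and second Cre libraries were nearly equal for Tlr7, and in the deposited FPKM (counts scaled to gene length and library total, 2.56 and 2.60) their order turned, so that its groups overlapped there. Its log2 fold change was -0.78 ± 0.43 (adjusted p 0.478), and -0.32 without floxed replicate 1. Tlr9 (chromosome 9, 106222598 to 106226883, plus strand) had the widest fold range of the receptors among the 10, at 17.4 and 5.96 CPM in the floxed and 4.88 and 3.51 in the Cre libraries. Only floxed replicate 1 stood well above the others for Tlr9, with a log2 fold change of -1.48 ± 0.60 (adjusted p 0.369) over all libraries and -0.50 without floxed replicate 1.

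Myd88 (chromosome 9, 119335934 to 119341411, minus strand), the shared adaptor, had close replicates. It stood at 61.5 and 56.6 CPM in the floxed and at 40.9 and 41.5 in the Cre libraries, so that both Cre libraries lay at 69.8% of the floxed mean on average. The log2 fold change was -0.52 ± 0.19 (unadjusted p 0.0389, adjusted p 0.328 in edgeR), the smallest standard error among the 10 genes, and Acaa1a on the other strand covers 11.3% of its exon sequence. Of 12 other settings 1 called it, the one without floxed replicate 2.

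Nod2 (chromosome 8, 88647315 to 88688474, plus strand) stood at 10.4 and 23.0 CPM in the floxed and 7.99 and 7.78 in the Cre libraries. The Cre pair was alike and the floxed pair differed by 2.22 times, and the log2 fold change was -1.08 ± 0.45 (adjusted p 0.381). Without floxed replicate 2 the log2 fold change of Nod2 was -0.40. Nlrp3 (chromosome 11, 59541568 to 59566956, plus strand) had the fewest reads of the 10, with 129 and 81 counts in the floxed and 55 and 28 in the Cre libraries, or 5.48, 4.64, 2.80 and 1.61 CPM. Its mean FPKM of 0.891 was under the minimum of 1 for testing. In a fit with no such minimum its log2 fold change was -1.25 ± 0.56, with an adjusted p of 0.206; that fit called 3.41% of 27379 genes lower, Tlr9 and Casp4 among them.

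The 2 caspases were higher in floxed replicate 2 than in floxed replicate 1. Casp4 stood at 58.5 and 115.8 CPM in the floxed libraries and at 22.4 and 27.6 in the Cre libraries. The lower floxed value was more than the higher Cre value by 2.12 times, and the floxed mean was 3.49 times the Cre mean. The log2 fold change was -1.80 ± 0.38 (unadjusted p 0.00461, adjusted p 0.166 in edgeR), the largest in size of the 10 genes. Casp1, whose product cleaves the precursor of interleukin 1 beta, stood at 30.5 and 54.8 CPM against 26.3 and 25.1. Its first floxed value was near the Cre pair, and its log2 fold change was -0.73 ± 0.33 (adjusted p 0.405), or -0.25 without floxed replicate 2. In GENCODE M21 no exon base of Casp1 or Casp4 is shared with another annotated gene, though like sequence of related caspases can make reads hard to assign. For Casp1 this covers 1497 exon bases. The deposited values imply a length of 3136, and the further bases were not checked.

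**Figure D2:**
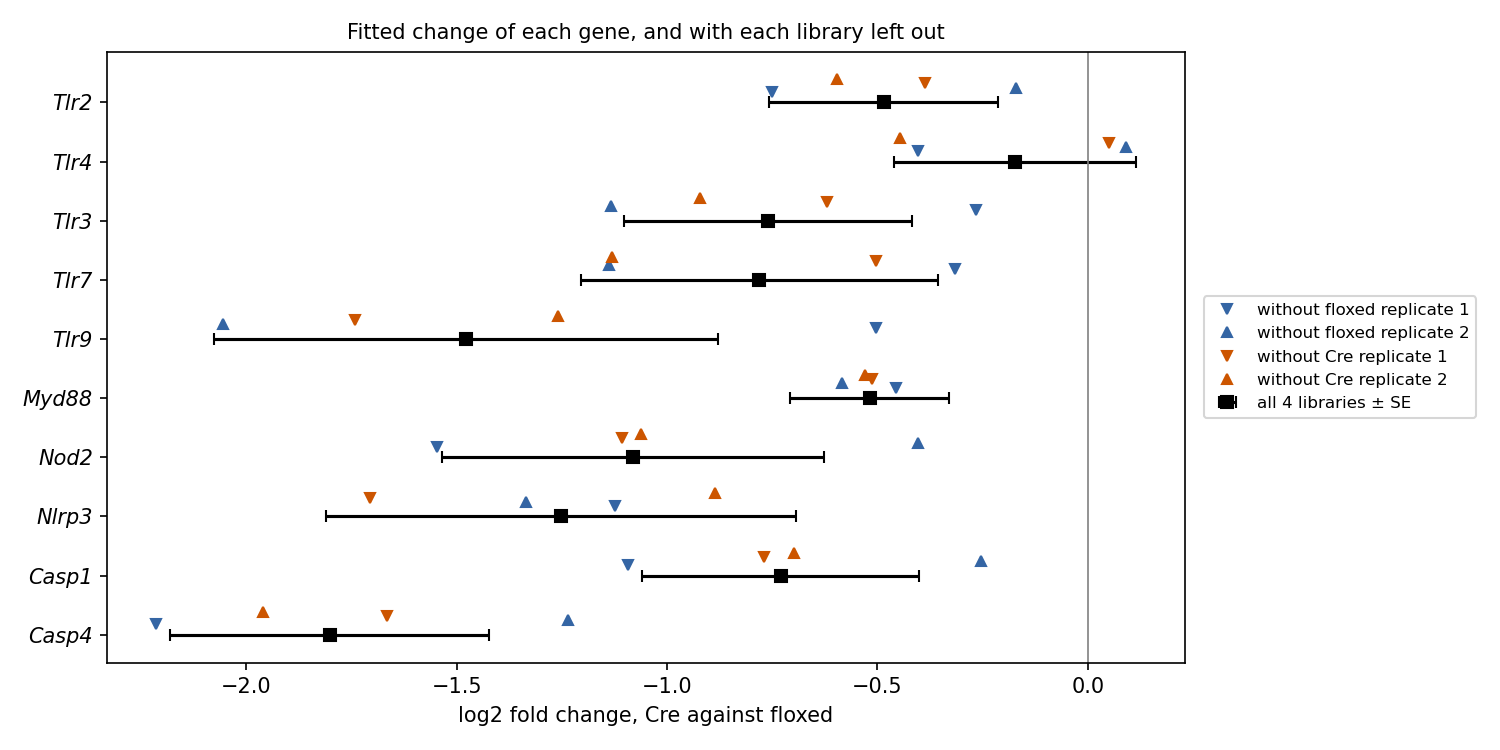
Log2 fold change of Cre against floxed for each gene (squares, bars ± SE; Nlrp3 from the fit with no minimum level) and with each library left out (triangles). Casp4 lies from -2.21 to -1.23 with 1 library left out, and Tlr4 lies on both sides of 0.

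Per kilobase, the 10 genes spanned a mean FPKM over the 4 libraries from 19.3 for Myd88 to 0.891 for Nlrp3. Between them the order was Casp4 at 14.9, Tlr2 at 12.9, Casp1 at 10.7, Tlr4 at 9.42, Tlr3 at 7.34, Tlr7 at 2.91, Nod2 at 2.41 and Tlr9 at 2.29 FPKM. Neighbours in this order overlapped in their ranges over the libraries, except Tlr3 and Tlr7. The place of Casp1 depends on its gene model: the deposited FPKM imply a length of 3136 bases, where GENCODE M21 has 1497 exon bases. The same counts over the shorter length would give a mean of 22.5 FPKM. Any reads counted outside the shorter model would lower that value, and their number is not known. Whether Casp1 stood above Myd88 is therefore not known. For the other 9 genes the implied length equalled the annotated one. In the floxed libraries Casp4 held 16.2 and 29.9 FPKM, and in the Cre libraries 5.98 and 7.40, so that in both Cre libraries it was below Tlr2 (9.97 and 11.6 FPKM), and in both floxed ones above it (12.5 and 17.5 FPKM).

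The 2 floxed libraries differed from each other in opposite directions for different sensors. Tlr9 was 2.92 times as high in floxed replicate 1 as in floxed replicate 2 (95% exact counting interval 2.35 to 3.66), Tlr3 1.81 times (1.65 to 2.00) and Tlr7 1.76 times (1.48 to 2.10). Nod2 was 2.22 times as high in floxed replicate 2 (1.89 to 2.62), Casp4 1.98 times, Casp1 1.80 times, Tlr2 1.50 times and Tlr4 1.42 times. Myd88 and Nlrp3 lay between, at 1.09 and 1.18 times toward floxed replicate 1, the interval of Nlrp3 spanning 1 (0.887 to 1.58). Of all tested genes, 21.1% were over 1.5 times as high in floxed replicate 1, as were Tlr3, Tlr7 and Tlr9, and 18.1% were over 1.5 times as high in floxed replicate 2, as were Tlr2, Casp1, Casp4 and Nod2. This fold was chosen after the values were seen, Tlr2 lies just past it, and the intervals cover counting error only. With 1 library on each side there is no test of this difference.

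The receptors were then set out by where they act, a grouping made after the values were seen and not tested. All 7 mouse Toll-like receptors of the endosome (Tlr3, Tlr7, Tlr8, Tlr9, Tlr11, Tlr12 and Tlr13) were higher in floxed replicate 1 than in floxed replicate 2, by 1.39 times for Tlr11 to 4.17 times for Tlr12, and the counting interval lay above 1 for 6 of them. Of all tested genes, 52.1% were higher in floxed replicate 1. Of the 5 surface receptors, Tlr2 and Tlr4 had intervals below 1, Tlr6 above 1 (1.76 times), and Tlr1 and Tlr5 spanned 1. Summed over the 7, endosomal receptors held 150.2 and 68.8 CPM in the floxed and 53.2 and 63.9 in the Cre libraries, so that floxed replicate 2 was near the Cre pair. Summed over the 5, surface receptors held 105 and 139.9 against 92.1 and 117 CPM, and these groups overlapped. Ptprc, a surface phosphatase of all leukocytes, stood at 118 and 54.9 CPM in the floxed and 43.0 and 51.6 in the Cre libraries. The summed FPKM of 12 macrophage and monocyte markers was 974 and 557 against 451 and 461. Ptprc and this sum share the high floxed replicate 1 of the endosomal receptors, and their part in it was not tested. Of the 6 leukocyte markers that include Ptprc, only 2 were over 1.5 times as high in floxed replicate 1, and their median ratio was 1.34. Other immune markers leaned the other way. Of 10 T and NK cell markers 7 were higher in floxed replicate 2, as were 6 of 7 B and plasma cell markers.

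**Figure D3:**
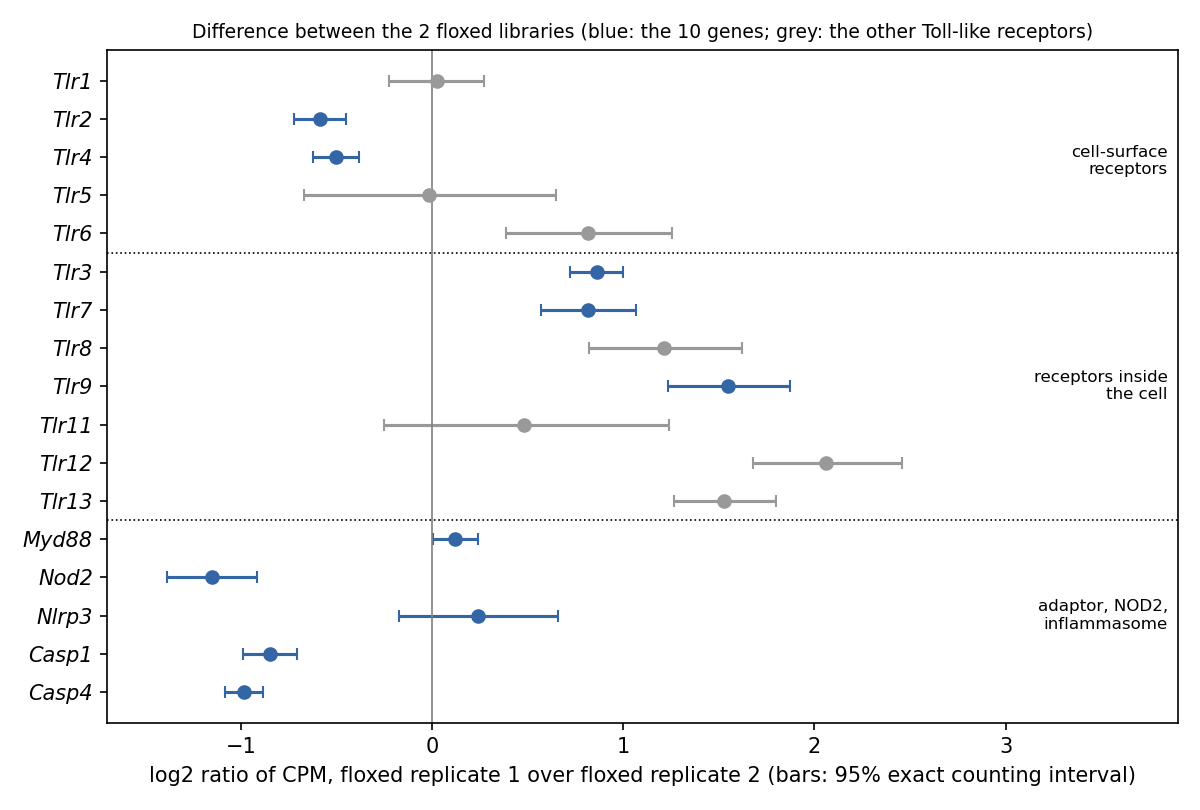
Log2 ratio of CPM in floxed replicate 1 over floxed replicate 2 for the 10 genes (blue) and the other Toll-like receptors (grey), with 95% exact counting intervals. All endosomal receptors lie right of 0, and Tlr2, Tlr4, Nod2, Casp1 and Casp4 lie left of it.

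Calls among the 10 genes therefore turned on which floxed library was kept. Without floxed replicate 1, edgeR called 14.0% of genes lower, and Tlr2 (-0.75, adjusted p 0.00849), Nod2 (-1.55, adjusted p 0.000214), Casp1 (-1.09, adjusted p 0.000376) and Casp4 (-2.21, adjusted p 5.9e-08) among them. Without floxed replicate 2 it called 11.4% lower, and Tlr3 (-1.13, adjusted p 0.000277), Tlr7 (-1.14, adjusted p 0.00771), Tlr9 (-2.06, adjusted p 8.4e-05), Myd88 (-0.59, adjusted p 0.0374) and Casp4 (-1.23, adjusted p 0.000123) among them. Casp4 is in both sets. In each of these fits the lone floxed library is assumed to vary like the Cre pair, whose biological coefficient of variation was 0.163, against 0.403 for the floxed pair. Without either Cre library none of the 10 was called.

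The genes whose levels ran most like each of the 10 were those whose largest difference in centred log2(CPM + 0.5) over the 4 libraries was smallest. With 4 points many genes come close. For Tlr9 they were Oas3, Mdk and Tubb2b (largest difference 0.11 to 0.12 log2 units), for Tlr7 P2ry13, Uchl1 and Tspan15 (0.045 to 0.092) and for Tlr3 Rfc3, Crem and B4galt6 (0.027 to 0.048). Casp4 was followed least closely, by Igfbp3, Igkv1-88 and Slc2a6 (0.13 to 0.19). Casp1 was nearest to Rab9, Oas1c and Tmprss2, Nod2 to Rin2, Klk8 and Ifitm6, and Nlrp3 to Rundc3a, Pth1r and Ctsz. Tlr2 was nearest to Tuft1, Ube2e2 and Dazap2, Tlr4 to Coq3, Ccnq and Wdyhv1, and Myd88 to Mex3b, Sox17 and Slc2a9.

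Around the receptors, genes that present ligands or mature the receptors were mostly lower in the libraries labelled Cre, and the shared signalling chain had no common direction. None of the genes named in what follows passed the edgeR test at an adjusted p under 0.05. The list counts stand beside these shares of all tested genes. Without overlap, 23.6% were lower in the Cre libraries and 24.7% higher. At an unadjusted p under 0.05 in edgeR, 6.58% were lower and 7.30% higher. Of 10 co-receptors and chaperones, 8 had groups that did not overlap with lower Cre values and 1 with higher, 6 were lower by unadjusted p under 0.05, and the median log2 fold change was -1.14. Lbp, which hands lipopolysaccharide to CD14, stood at 252 and 290 CPM in the floxed and 88.1 and 124 in the Cre libraries (log2 fold change -1.36 ± 0.27, adjusted p 0.16). The lysosomal proteases that trim endosomal receptors followed the same order, with Lgmn at 215 and 157 against 86.6 CPM in each Cre library, and Ctss at 242 and 116 against 72.7 and 69.9. Ly86, partner of the TLR-like protein CD180, stood at 35.6 and 25.5 against 11.3 and 14.2 CPM. Of 21 tested adaptors, kinases and transcription factors of the pathway, 1 was lower by unadjusted p under 0.05, and their median was -0.050, or 0.017 without Cre replicate 1. That gene was Irf7, which drives type I interferon genes downstream of TLR7 and TLR9, at 189 and 141 CPM against 56.6 and 35.7 (-1.84 ± 0.32, adjusted p 0.133). Irf5 and Tab1 had log2 fold changes of -1.16 and -0.51, and Ticam1, the adaptor of TLR3, one of 0.53.

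Of 7 other Toll-like receptors, 5 were tested, with a median of -0.35 that was 0.11 without floxed replicate 1. Tlr12, a receptor for the protozoan protein profilin, stood at 15.8 and 3.78 CPM in the floxed and 2.29 and 1.61 in the Cre libraries (-2.32 ± 0.76, adjusted p 0.294), and it reached the minimum level for testing through the floxed libraries alone. Tlr13, a sensor of bacterial ribosomal RNA, stood at 24.4 and 8.48 against 7.07 and 8.12 CPM. Both had groups that did not overlap, though floxed replicate 2 was near the Cre pair for Tlr13. Tlr6 and Tlr1 had log2 fold changes of -0.35 and 0.11.

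Of 10 tested negative regulators of the pathway, 9 had a log2 fold change below 0, as had 53.0% of all tested genes, and 1, Dusp1, above it. The groups of 5 of the 10 overlapped, 4 had lower Cre values with no overlap and 1 had higher ones. At an unadjusted p under 0.05, 1 was lower and 1 higher, where 7.30% of all genes tested were higher at that level. The median was -0.23, or -0.38 without floxed replicate 1 and -0.10 without floxed replicate 2. Dusp1, a phosphatase that switches off stress kinases, stood at 32.3 and 31.7 CPM in the floxed and 56.9 and 55.2 in the Cre libraries (0.81 ± 0.19, adjusted p 0.192), with close replicates in both groups. Tnfaip3, a ubiquitin-editing enzyme, stood at 21.2 and 71.7 against 16.2 and 17.1 CPM, and Zc3h12a, an RNase that degrades cytokine transcripts, at 12.9 and 138.5 against 27.7 and 20.5. Both were high in floxed replicate 2 alone. Tnip1 had a log2 fold change of -0.55.

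The list of other inflammasome sensors and adaptors had no common direction, with 6 tested log2 fold changes above 0 and 4 below. In it, 3 Naip genes were higher in the Cre libraries by unadjusted p under 0.05. Of 10 tested sensors and adaptors, 4 had higher Cre values with no overlap, all of them Naip genes, where 24.7% of all tested genes did, and 0 had lower ones. The median log2 fold change was 0.047, and 0.26 without floxed replicate 2. Naip6 stood at 22.4 and 16.8 CPM in the floxed and 69.5 and 73.0 in the Cre libraries (1.86 ± 0.23, adjusted p 0.0982), Naip1 at 6.80 and 10.9 against 38.6 and 30.6 (1.97 ± 0.34) and Naip5 at 22.9 and 42.9 against 82.0 and 63.9 (1.15 ± 0.36). NAIP proteins bind bacterial flagellin and secretion system proteins for the NLRC4 inflammasome; the genes are close copies of each other, so their separate counts are uncertain. Naip2 differed less, at 23.0 and 23.6 against 28.4 and 27.8 CPM (0.27 ± 0.22, adjusted p 0.604). Panx1, a channel linked to NLRP3 activation, had a log2 fold change of -0.51.

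Inflammasome effectors mostly stood lower in the Cre libraries. Of 9 tested effectors and inhibitors, 7 had lower Cre values with no overlap and 0 higher, and 4 were lower at an unadjusted p under 0.05. Their median was -0.65, and -0.43 without floxed replicate 1. Il1b, the cytokine precursor that caspase-1 cleaves, stood at 11.8 and 24.0 CPM in the floxed and 0.763 and 0.518 in the Cre libraries (-4.78 ± 0.56, adjusted p 0.0982), and it was tested only because of its floxed level. Casp12 stood at 107 and 71.8 against 38.2 and 50.3 CPM, with both floxed libraries above both Cre libraries (-1.01 ± 0.29, adjusted p 0.25).

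Among 7 tested genes of the NOD pathway other than Nod2, 3 had lower values by unadjusted p under 0.05, and the median was -0.29, but 0.11 without floxed replicate 2. Of the 7, 1 was tested only because of its floxed level. Slc15a3, a lysosomal transporter of bacterial peptides, stood at 26.3 and 7.57 CPM in the floxed and 3.0 and 3.28 in the Cre libraries. Ripk2, the kinase that NOD2 recruits, stood at 29.3 and 36.6 against 15.9 and 19.6 (-0.89 ± 0.26, adjusted p 0.254), and Nlrc5, an activator of class I antigen presentation genes, at 146 and 40.4 against 32.8 and 27.8. Ripk2 thus had closer floxed replicates than Nod2. Xiap had a log2 fold change of 0.45.

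Cytosolic sensors of nucleic acids resembled the endosomal receptors in which floxed library was high. Of the 10, 7 were over 1.5 times as high in floxed replicate 1 and 1 in floxed replicate 2, beside 21.1% and 18.1% of all tested genes. Their median log2 fold change was -0.79 (-1.20 without floxed replicate 2), with 5 lower and 1 higher at an unadjusted p under 0.05. Zbp1, a sensor of Z-form nucleic acid, stood at 153 and 62.4 CPM in the floxed and 20.8 and 20.6 in the Cre libraries. Dhx58, a regulator of RIG-I-like receptors, stood at 36.8 and 32.8 against 14.9 and 11.0, and Ifi204, a DNA sensor, at 72.4 and 44.6 against 25.8 and 28.3. The exception was Mavs, the mitochondrial adaptor of those receptors, at 58.4 and 59.7 against 92.8 and 109 CPM (0.77 ± 0.21, adjusted p 0.231).

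Downstream, of 17 tested NF-kappa-B target genes of 21, 11 were lower and 0 higher at an unadjusted p under 0.05, and 13 had lower Cre values with no overlap. Their median log2 fold change was -1.95, but 7 of the 17 were tested only because of their floxed level, and with a minimum mean FPKM of 5 the median was -0.72. Acod1, which makes itaconate, stood at 82.1 and 35.9 CPM in the floxed and 0.305 and 0.0576 in the Cre libraries. Icam1, an adhesion molecule, stood at 83.6 and 88.6 against 29.2 and 23.4 (-1.71 ± 0.22, adjusted p 0.0982), and Tnf at 5.61 and 9.74 against 0.967 and 0.691. The Cre libraries were below the floxed ones in each of these. The summed FPKM of all 21 genes was 194 and 783 in the floxed and 483 and 386 in the Cre libraries, so the sums overlapped. Of the 17, 4 were over 1.5 times as high in floxed replicate 1 and 8 in floxed replicate 2, beside 21.1% and 18.1% of all tested genes.

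**Figure D4:**
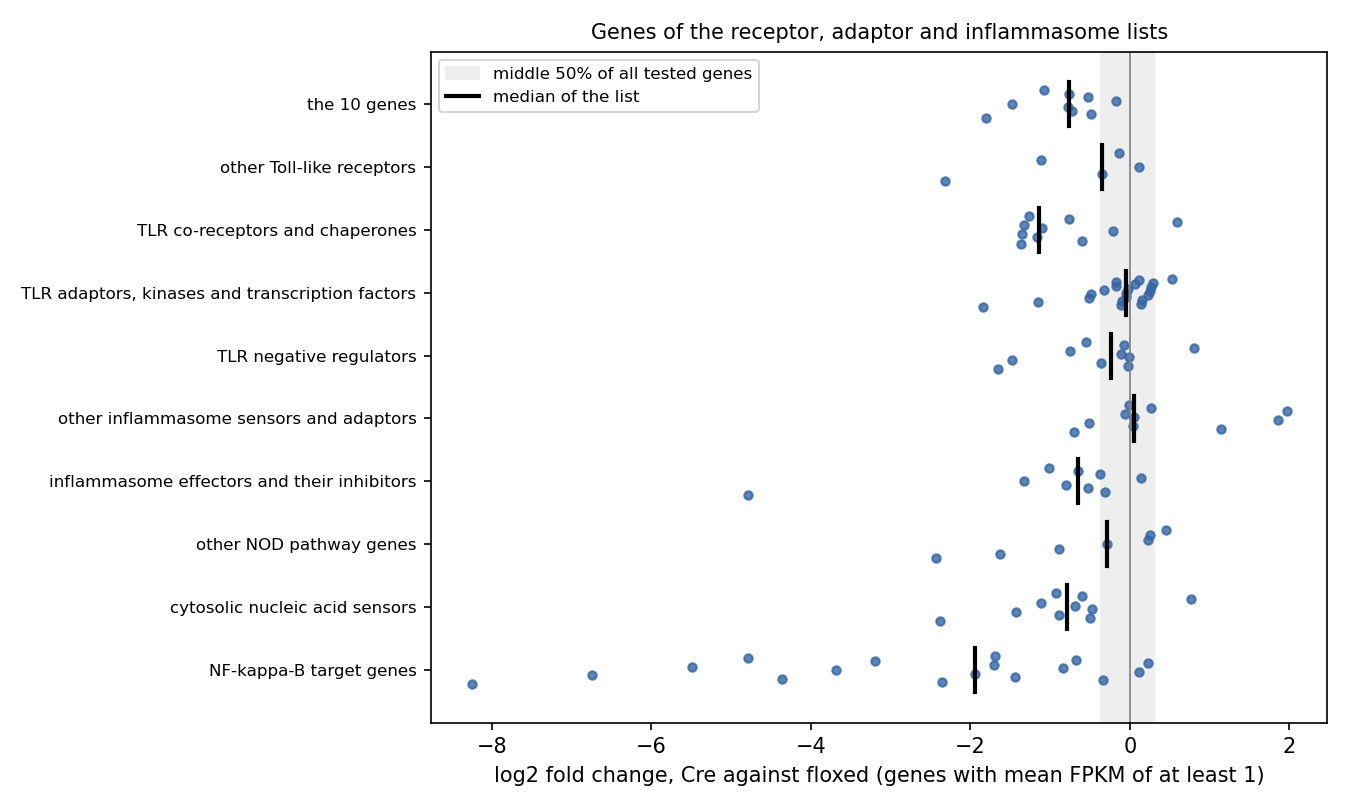
Log2 fold changes of Cre against floxed for tested genes (points) of the 10 genes and each related list, with the list median (black line) and the middle 50% of all tested genes (grey, -0.36 to 0.31). The median of the co-receptors and chaperones lies at -1.14 and that of the adaptors at -0.050; that of the NF-kappa-B targets, at -1.95, includes 7 genes tested only because of their floxed level and is -0.72 at a minimum mean FPKM of 5.

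Levels of cell type markers also differed between the libraries, and their part in the values above was not tested. Of 12 macrophage and monocyte markers, 8 had lower Cre values with no overlap and 1 higher, beside 23.6% and 24.7% of all tested genes. Of 10 neutrophil markers, 6 were lower without overlap, the 6 that were tested, but 4 of these were tested only because of their floxed level. The summed FPKM of the 10 was 201 and 168 in the floxed and 28.1 and 27.5 in the Cre libraries. S100a8, a neutrophil calcium-binding protein, stood at 11.3 and 25.7 against 0.0509 and 0.173 CPM; of the 10 markers, 6 were higher in floxed replicate 1 and 4, S100a8 among them, in floxed replicate 2. Camp had no count in 3 libraries and Elane in 2. T and NK cell markers summed to 56.9 and 56.2 FPKM against 14.9 and 14.4, with 8 of 10 lower without overlap. Of the 9 that were tested, 4 were tested only because of their floxed level. Dendritic cell markers, at 19.0 and 13.0 against 11.2 and 12.9, differed little between the second floxed library and the Cre pair. B and plasma cell markers summed to 357 and 431 against 185 and 200.2 FPKM, nearly all of it Jchain; of the 7, 2 had lower Cre values with no overlap, 2 (Ms4a1 and Pax5, both under 1 CPM) higher ones and 3 overlapped. Epithelial marker sums overlapped between groups, at 767 and 1219 against 1002 and 842 FPKM. The sum was highest in floxed replicate 2, though 3 of the 8 markers were higher in floxed replicate 1 than in floxed replicate 2. Of 8 stromal markers 4 had lower and 3 higher Cre values with no overlap, with a median log2 fold change of -0.033, while their sum, mostly Dcn and Lum, was 754 and 1033 against 1109 and 1192 FPKM; endothelial sums overlapped, and all 6 smooth muscle markers were higher in the Cre libraries, at 1797 and 1541 against 2856 and 2558.

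**Figure D5:**
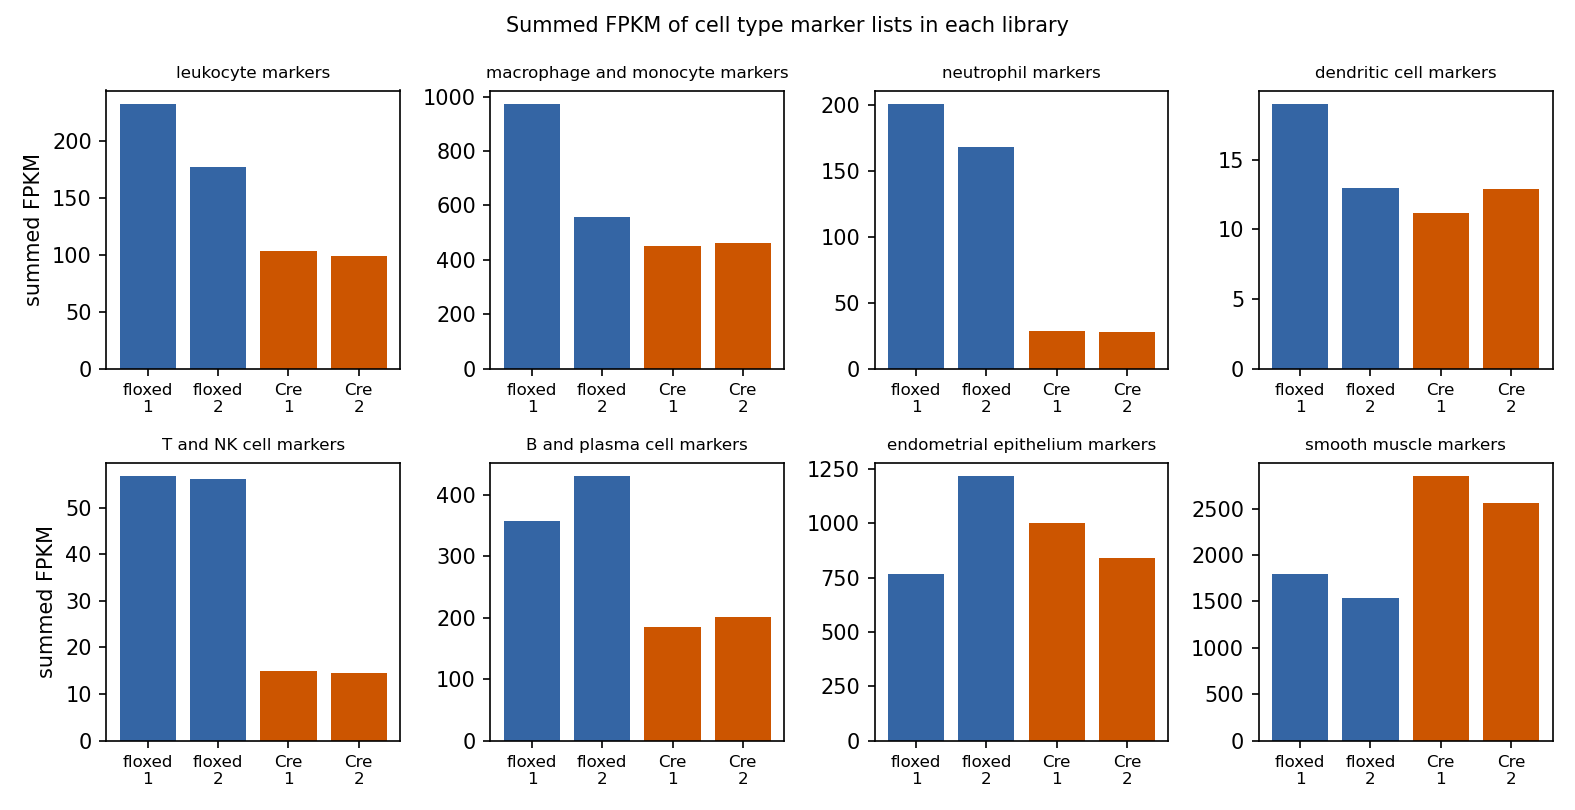
Summed FPKM of cell type markers in each library (1 bar per library; floxed blue, Cre orange). Immune marker sums are higher in the floxed libraries, but dendritic cell sums are nearly equal in floxed replicate 2 (13.0) and Cre replicate 2 (12.9). Epithelial sums overlap, and smooth muscle sums are higher in the Cre libraries.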

How the data were processed

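Gene tables of 4 endometrial RNA libraries gave, per the file headers, the read count of each gene and an FPKM value. HISAT2, HTSeq 0.13.5 and GRCm38 are named in the submitters' processing notes; whether counting used strand is not given in the sources used here. The deposited FPKM values equal the count per gene length and total count (23463 of 23463 lengths equal within 1e-06), with totals of 17444368 to 22950532 counts, where 3 counts correspond to 0.127 to 0.173 CPM. The main test was edgeR 4.0.16 quasi-likelihood (R 4.3.3, TMM scaling, group as the only term, 2 residual degrees of freedom, two-sided) on the deposited counts of 13513 genes whose FPKM averaged 1 or more, adjusted by Benjamini-Hochberg over these. The 15032 others were not tested. SE is the log2 fold change over the root of the test statistic. No single value can pass an exact permutation test here, whose smallest two-sided p is 0.333. In data simulated for this comparison over 13513 genes, 77% of genes changed 4-fold and 100% of those changed 16-fold were found. Every simulated gene had the same biological coefficient of variation, 0.309, in both groups. The deposited pairs differed, at 0.403 for floxed and 0.163 for Cre, so these rates need not hold for the deposited data. Alternatives were DESeq2 1.42.0, limma 3.58.1, other scalings and filters, the replicate block and each library left out. The 10 genes and all lists were chosen with earlier results of these data known. Named from each list are up to 4 tested genes of smallest unadjusted p, and beside results single markers, Naip2 and the remaining Toll-like receptors, chosen after their values were seen; some genes that this rule names are not reported here. RefSeq supplied promoters; its proteins were not used here.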

Additional observations from a re-analysis of the deposited data

How the results depend on the processing

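Of 115 values of the 10 genes under other settings, 101 kept their direction and their side of the threshold, 12 kept their direction and passed it, and 2, both of Tlr4, turned: 0.092 without floxed replicate 2 and 0.049 without Cre replicate 1, where leaving out 1 library gave -0.45 to 0.092. The number of the 10 genes called was 1 with DESeq2, 2 with no filter on low genes, 0 to 5 with 1 library left out and 0 in the remaining settings. Over all genes, the calls higher and lower in the libraries labelled Cre were 438 and 405 with DESeq2, 995 and 933 with no filter, 0 to 2364 and 0 to 1885 with 1 library left out, 4 and 0 with limma at a pseudocount of 0.1, and 1 and 0 with a minimum FPKM of 5. In the edgeR fit of all libraries they were 0 and 0, with 987 and 889 by unadjusted p under 0.05, and without either Cre library again 0 and 0, with 365 and 293 or 348 and 270. Groups that did not overlap numbered 9 of the 10 genes, and 9 to 10 with 1 library left out. They numbered 8 with total counts or with deposited FPKM (the latter added after the data were seen), Tlr7 being the gene lost. A lone library has only to lie outside the other pair, so the counts with 1 left out ask less. The share of all tested genes was taken for all 4 libraries with TMM scaling only, at 23.6% lower and 24.7% higher, so these other counts have no share beside them. Same-numbered libraries did not deviate together (correlation -0.0757), so the numbers are not shown to pair them; with the replicate block edgeR called 0 genes, with 868 and 657 by unadjusted p under 0.05. Tlr9 and Nlrp3, with 61 to 410 and 28 to 129 counts, are limited most by depth.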
